A study of Mus musculus with 60 samples.

Results

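The proteasome genes of the mouse were taken as all probe sets whose gene symbol opens with Psma, Psmb, Psmc, Psmd, Psme, Psmf or Psmg followed by a digit. The rule found 104 of the 45101 probe sets on the array. Of these, 103 carried a single symbol and stood for 49 of 18193 genes. One further probe set was annotated to a pair of Psme2 genes and was not assigned to either. Of the 49 genes, 47 code for a subunit, an assembly factor, an activator or an inhibitor of the proteasome. The other two, Psmc3ip and Psme3ip1, share the prefix but are not subunits: Psmc3ip is known for its part in meiotic recombination and Psme3ip1 binds the activator protein made from Psme3. Where a gene had several probe sets, the one with the highest mean signal over all arrays was used.

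RNA was profiled from the heart, gastrocnemius muscle and neocortex of B6C3F1 hybrid mice, which the methods describe as male and individually housed. The 4 groups were old mice on a calorie-restricted diet (old CR), old mice given resveratrol in the control diet (old resveratrol), old mice on the control diet (old control) and young mice on the control diet (young control). Old mice were 30 months of age and young mice 5 months. CR and resveratrol began at 14 months, and by the methods the old controls stayed on the control diet they already had. Every group held 5 arrays in each tissue, 1 biological replicate to an array, for 60 arrays. The diets were made from the AIN-93M formulation, resveratrol was given at 4.9 mg per kg body weight, and the labels give the restriction as 40% whereas the methods describe a smaller one. No group carried a transgene or a mutation, and the methods state that the control diet itself was held below free feeding. The comparisons asked what age does (old control against young control), what each diet does at old age (old CR or old resveratrol against old control) and whether the diets differ (old CR against old resveratrol). Both diets were set against the same 5 old control arrays in each tissue.

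The proteasome degrades proteins that have been marked with ubiquitin. Its core particle is a barrel of alpha rings, which form the gate, and beta rings, of which Psmb5, Psmb6 and Psmb7 carry the proteolytic sites. Under interferon these are replaced by the inducible subunits Psmb8, Psmb9 and Psmb10, giving the immunoproteasome that cuts peptides for antigen presentation. A regulatory particle caps the barrel, with a ring of ATPases (Psmc genes) that unfolds and feeds the substrate. It also holds a set of non-ATPase subunits (most Psmd genes), some of which bind ubiquitin or remove it. Subunit genes are known to be transcribed in a coordinated way, and the transcription factor encoded by Nfe2l1 raises many of them together when the proteasome is inhibited.

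All 60 arrays had the same deposited trimmed mean signal of 500, so levels are relative to the rest of the transcriptome on each array. Markers were highest in their own tissue: the summed signal of 8 heart markers was 322830 to 548320 in heart, 10046 to 42423 in muscle and 2235 to 3129 in neocortex, that of 10 skeletal muscle markers was 354490 to 724880 in muscle, 39687 to 80387 in heart and 871 to 1540 in neocortex, and that of 10 neocortex markers was 103050 to 140090 in neocortex, 1912 to 3421 in heart and 4194 to 9721 in muscle. In bulk tissue, fewer cells of a type and less RNA per cell cannot be told apart. Some arrays stood apart. Old control array 4 and young control array 1 of heart carried high immunoproteasome signal, and old control array 1 and young control array 4 of muscle had actin 3′ minus 5′ log2 signals of 1.40 and 1.11. This measure of RNA or labelling integrity also differed by group: in neocortex it was 0.66 to 0.77 in old CR, 0.76 to 1.01 in old resveratrol, 0.45 to 0.60 in old control and 0.54 to 0.71 in young control arrays. In heart it was 0.66 to 0.89, 0.68 to 0.95, 1.26 to 1.66 and 0.61 to 0.87 in the same order of groups. The Gapdh 3′ minus 5′ log2 signal in muscle was -0.30 to -0.23 in each diet group. It was -0.22 to 3.23 in old control arrays, with array 1 the highest, and -0.28 to 0.19 in young control arrays. Gapdh in heart had -0.28 to -0.25, -0.27 to -0.17, -0.08 to 0.25 and -0.28 to -0.14 in the order above, and in neocortex its groups overlapped. In muscle the spiked poly-A controls had a log2 signal of 9.16 to 10.61 in old CR and 9.84 to 10.29 in old resveratrol arrays, against 6.40 to 7.19 in old control and 6.74 to 8.10 in young control arrays. The part of these array measures in the results was not tested, apart from the actin covariate given for neocortex.

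Almost all proteasome genes were expressed in each tissue. A gene was tested where its mean signal in the tissue was at or above that tissue's 40th percentile. That held for 48 of the 49 members in heart and for 47 each in muscle and neocortex. The thymus subunit gene Psmb11 was tested in no tissue, and the testis subunit gene Psma8 was tested in heart alone, where its mean signal in young controls was 56.3 ± 26.3 (SD, n = 5). The median of the members' mean signals in young controls was 4742 (heart), 4951 (muscle) and 2423 (neocortex). In a limma model over all 60 arrays, with Benjamini-Hochberg adjustment over 13281 genes, 34 of 47 members were higher and 1 lower in heart than in neocortex of young mice (35.9% of all genes were higher and 35% lower), with a median log2 difference of 0.58 against 0.03 over all genes. Muscle exceeded neocortex for 32 members and was lower for 1 (all genes, 36.2% and 37.1%), with a median of 0.70 against 0.01. Between heart and muscle 11 members were higher in heart and 14 lower (31.5% and 23.3% of all genes).

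Genes of the interferon-inducible subunits and of the alternative caps were among the members that differed most between tissues. Psme1, a subunit of the interferon-inducible PA28 activator, had signals of 8454, 9864, 8697, 11728 and 10291 in young heart, 2743, 3128, 3121, 1750 and 2833 in young muscle and 1683, 1183, 1203, 1200 and 1081 in young neocortex. Its log2 difference was 2.96 ± 0.13 (SE, adjusted p = 2.2e-28) between heart and neocortex and 1.87 ± 0.13 (adjusted p = 4.72e-19) between heart and muscle. The heart arrays overlapped neither other tissue. Psmb10 set muscle apart, with 1783 to 2236 in young heart, 173 to 555 in young muscle and 1457 to 1546 in young neocortex, and its log2 difference was -1.92 ± 0.22 (adjusted p = 2.22e-11) between muscle and neocortex. Psmb8 and Psmb9 were 2.88 and 2.67 log2 units higher in heart than in neocortex (adjusted p = 2.75e-10 and 1.36e-09), on heart arrays that include the high young control array 1. Psme4, which encodes the PA200 cap, was 2.20 ± 0.14 higher in heart and 2.61 ± 0.14 higher in muscle than in neocortex. Psmc5, an ATPase gene, was the 1 member lower in heart than in neocortex, by a log2 difference of -0.58 ± 0.10 (adjusted p = 7.7e-07).

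In the neocortex, CR was accompanied by higher levels of most proteasome genes. Of the 47 members tested, 30 rose and 1 fell in old CR relative to old control mice (limma, Benjamini-Hochberg adjustment over 13057 genes, adjusted p under 0.05), which is 63.8% and 2.13% of the members, where 13.1% of all genes rose and 17.5% fell. The median log2 difference of the members was 0.27, against -0.03 over all genes, and 43 of 47 members had a positive difference. The rise was modest for each gene, with log2 differences of called members up to 0.53. For 27 members the old CR arrays all lay above the old control arrays and for 2 they all lay below, as they did for 8.33% and 11.5% of all genes. Since members are highly expressed, called rises were also counted over genes with a mean signal of at least 1000: 27 of 37 members rose (73%), against 1061 of 4439 genes (23.9%). Their median log2 differences were 0.31 and 0.05.

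The core barrel and the ATPase ring rose nearly as whole sets under CR. Rises were called for 6 of 7 alpha ring genes, 4 of 4 structural beta ring genes and 6 of 6 ATPase genes, and for 6 of 11 non-ATPase subunit genes. Psma2, an alpha ring subunit gene, had signals of 5932, 6357, 6798, 5758 and 5867 in old CR arrays, 5153, 5851, 4198, 5356 and 5712 in old resveratrol arrays, 4582, 4472, 3533, 4141 and 4551 in old control arrays and 5021, 4554, 4191, 4013 and 4498 in young control arrays. Every old CR array exceeded every control array, and the log2 difference from old control was 0.53 ± 0.09 (SE, adjusted p = 7.63e-05). Psmb4, a structural beta ring gene, had 10224, 10329, 10332, 9432 and 9806 in old CR, 8359, 8520, 7554, 8005 and 9197 in old resveratrol, 7230, 7066, 7791, 6251 and 6657 in old control and 7766, 7437, 6858, 6568 and 7690 in young control arrays. The old CR arrays overlapped no other group, and the log2 difference from old control was 0.52 ± 0.07 (adjusted p = 4.48e-06). Psmb2, another structural beta ring gene, reached 2847, 2549, 2259, 2556 and 2704 in old CR arrays, against 1942, 1829, 2161, 1781 and 1358 in old control arrays, again without overlap (log2 difference 0.52 ± 0.12, adjusted p = 0.00193).

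Psmd6 and Psma6 were chosen after their values were seen, because their adjusted p was the lowest under CR, and do not stand for the spread of other members. Psmd6, a non-ATPase subunit of the lid, had 5575, 5511, 5203, 5426 and 5418 in old CR, 4794, 4731, 4265, 4073 and 4803 in old resveratrol, 3869, 3726, 4004, 3740 and 3779 in old control and 4311, 3943, 3792, 3820 and 3716 in young control arrays. Its log2 difference was 0.51 ± 0.06 (adjusted p = 1.52e-06) under CR and 0.24 ± 0.06 (adjusted p = 0.00336) under resveratrol, and old CR, old resveratrol and old control arrays formed 3 groups without overlap. Psma6, an alpha ring gene, had 8421, 8417, 8793, 8218 and 8221 in old CR, 7818, 8058, 7594, 8089 and 8338 in old resveratrol, 6235, 5980, 6582, 5846 and 6652 in old control and 7037, 6803, 6068, 6484 and 6276 in young control arrays. Both diets lay above all controls for Psma6, with log2 differences of 0.43 ± 0.05 under CR (adjusted p = 4.17e-06) and 0.35 ± 0.05 under resveratrol (adjusted p = 4.86e-05).

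**Figure D1:**
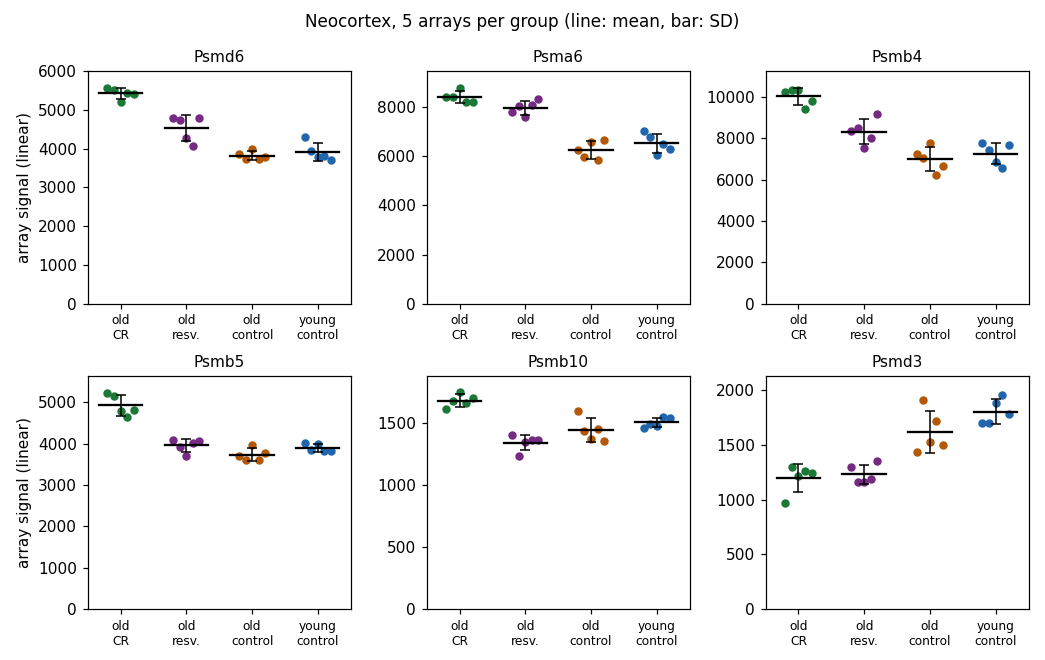
Array signal (y axis, linear, from 0) of 6 proteasome genes in the neocortex of old CR, old resveratrol, old control and young control mice; each point is 1 array, lines are means and bars SD (n = 5). Psmd6, Psma6, Psmb4 and Psmb5 are higher in old CR than in old control arrays without overlap, whereas Psmd3 is lower, with 971 to 1300 in old CR against 1437 to 1910 in old control arrays.

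Of the proteolytic subunits, Psmb5 (chymotrypsin-like site) and Psmb6 (caspase-like site) rose under CR and Psmb7 (trypsin-like site) did not pass. Psmb5 had 5230, 5140, 4787, 4638 and 4805 in old CR, 4086, 3909, 3710, 4021 and 4071 in old resveratrol, 3702, 3609, 3974, 3598 and 3767 in old control and 4010, 3834, 3988, 3821 and 3812 in young control arrays (log2 difference of old CR from old control 0.40 ± 0.05, adjusted p = 7.97e-06). The old CR arrays stood above all 15 others, which overlapped one another. Psmb6 had 3597, 4206, 3887, 3809 and 4147 in old CR, 3548, 3666, 3019, 3222 and 3776 in old resveratrol, 3168, 3242, 3453, 3316 and 3239 in old control and 3372, 3392, 3132, 3109 and 3177 in young control arrays, and its log2 difference under CR was 0.26 ± 0.07 (adjusted p = 0.00425). Psmb7 had 8638, 11373, 10851, 10058 and 9604 in old CR, 8578, 7414, 7455, 9388 and 10267 in old resveratrol and 10219, 9894, 10454, 9184 and 8800 in old control arrays, which overlapped (log2 difference under CR 0.05 ± 0.09, adjusted p = 0.674).

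The inducible subunits did not move as a set in this tissue. Psmb10, the counterpart of Psmb7, rose under CR, with 1609, 1674, 1742, 1657 and 1701 in old CR, 1396, 1234, 1342, 1360 and 1358 in old resveratrol and 1595, 1432, 1370, 1446 and 1348 in old control arrays (log2 difference from old control 0.22 ± 0.06, adjusted p = 0.00761). Psmb8 had low signals of 101, 150, 182, 152 and 132 in old CR, 209, 189, 156, 492 and 166 in old resveratrol, 172, 161, 175, 136 and 176 in old control and 85.1, 109, 122, 92.3 and 113 in young control arrays. Psmb9 had 172, 176, 167, 111 and 165 in old CR, 156, 161, 155, 459 and 140 in old resveratrol, 167, 172, 172, 187 and 138 in old control and 121, 130, 93.9, 84.8 and 119 in young control arrays. For both genes old resveratrol array 4 was the single high array, and the CR differences of -0.21 and -0.09 did not pass (adjusted p = 0.528 and 0.798).

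Outside the core and the ATPase ring the picture was mixed. Among the assembly chaperones 4 of 7 rose under CR (Psmd5, Psmd10, Psmg1 and Psmg3), with log2 differences between 0.36 and 0.38. None of the 4 tested activator and inhibitor genes (Psme1, Psme3, Psme4 and Psmf1) was called under either diet, with log2 differences under CR between -0.22 and 0.15. Psmd3, a lid subunit gene with 1 probe set, was the 1 member that fell: it had 971, 1300, 1216, 1263 and 1241 in old CR, 1293, 1158, 1159, 1184 and 1351 in old resveratrol, 1437, 1910, 1523, 1717 and 1496 in old control and 1700, 1696, 1884, 1958 and 1780 in young control arrays. Both diets lay below both control groups, with log2 differences from old control of -0.43 ± 0.09 under CR (adjusted p = 0.000712) and -0.39 ± 0.09 under resveratrol (adjusted p = 0.00201). Of the 2 genes that are not subunits, Psme3ip1 rose under CR (0.22 ± 0.07, adjusted p = 0.0269).

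Resveratrol was accompanied by a smaller rise. In old resveratrol relative to old control neocortex, 17 members rose (36.2%) and 1 fell (2.13%), where 12.3% of all genes rose and 13.9% fell, and the median log2 difference was 0.13 against -0.01 over all genes. Among genes with a mean signal of at least 1000, 15 of 37 members rose (40.5%), against 978 of 4439 genes (22%). Their median log2 differences were 0.12 and 0.05. The alpha ring held 6 of the 17 (6 of 7 alpha ring genes rose) and the ATPase ring 4 (of 6), whereas no proteolytic subunit gene and no activator was called. For 10 members all old resveratrol arrays lay above all old control arrays and for 2 below, against 8.62% and 9.84% of all genes. The 18 calls became 11 when a gene's probe sets were averaged. The 1 fall was Psmd3 again, measured against the same old control arrays as under CR. Psmd14, the lid deubiquitinase gene, had 9615, 7275, 7961, 7257 and 7272 in old CR, 6617, 6372, 8106, 8139 and 8072 in old resveratrol and 6259, 5103, 7222, 4878 and 5133 in old control arrays, with log2 differences of 0.47 ± 0.10 (adjusted p = 0.00126) under CR and 0.39 ± 0.10 (adjusted p = 0.00624) under resveratrol. Old control array 3 reached into the range of the old resveratrol arrays for this gene and lay just below the lowest old CR array. Psmg3, which encodes a core assembly chaperone, had 834, 826, 819, 766 and 759 in old CR, 824, 985, 863, 698 and 761 in old resveratrol and 547, 588, 657, 621 and 670 in old control arrays, without overlap of either diet group with old control (log2 difference under resveratrol 0.42 ± 0.09, adjusted p = 0.00184). Psmc3ip, not a subunit, had 159, 161, 90.8, 111 and 152 in old resveratrol against 69.5, 90.6, 81.1, 95.2 and 122 in old control arrays, which overlapped, and passed narrowly (0.54 ± 0.20, adjusted p = 0.049).

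The diets were also compared directly. In old CR relative to old resveratrol neocortex, 13 members were higher (27.7%) and 0 lower, where 3.66% of all genes were higher and 5.62% lower (limma; at an unadjusted p under 0.05, 22 members were higher and 1 lower). The median log2 difference was 0.15 against -0.02 over all genes, and the old CR arrays all exceeded the old resveratrol arrays for 12 members and for 3.35% of all genes. At a mean signal of at least 1000, 29.7% of 37 members were called higher, against 6.24% of 4439 genes. The count of 13 became 7 without old resveratrol array 3, 6 when a gene's probe sets were averaged and 0 with the actin 3′ to 5′ difference as a covariate. Psmd9, an assembly chaperone gene, had 570, 561, 611, 545 and 533 in old CR, 442, 402, 364, 369 and 478 in old resveratrol and 467, 494, 514, 495 and 393 in old control arrays, a log2 difference between the diets of 0.46 ± 0.11 (adjusted p = 0.0096). Psma4 had 6436, 7014, 6379, 7076 and 6347 in old CR against 5257, 4872, 3964, 4968 and 6094 in old resveratrol arrays (0.41 ± 0.10, adjusted p = 0.0124), with old control arrays between 5470 and 6428. For both genes neither diet was called against old control, and the diet groups lay apart from each other. Psmb2 was also higher in old CR, with 1841, 2216, 1853, 1845 and 1861 in the old resveratrol arrays (0.43 ± 0.12, adjusted p = 0.0277), as were Psmb10 (0.33 ± 0.06, adjusted p = 0.00267) and Psmb5 (0.31 ± 0.05, adjusted p = 0.00135). Of the other proteolytic and inducible subunits, Psmb6 (0.19), Psmb7 (0.23), Psmb8 (-0.63) and Psmb9 (-0.29) did not pass between the diets.

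Age itself was not accompanied by called changes in this tissue. In old control relative to young control neocortex, 0 of 47 members were called (limma; 5 at an unadjusted p under 0.05, and 2 by the methods' t-test at its own threshold), where 1.46% of all genes were called in either direction. The median log2 difference was -0.01 against 0.02 over all genes. For 2 members, Psmb8 and Psmb9, the old control arrays all exceeded the young control arrays, as they did for 2.5% of all genes, and neither passed, with log2 differences of 0.66 ± 0.23 (adjusted p = 0.168) and 0.62 ± 0.24 (adjusted p = 0.214). Of 14 tested markers of macrophages and microglia, 9 rose with age in neocortex, where 1.08% of all genes rose. The summed signal of the 15 markers was 16731 to 20698 in old control against 12254 to 13932 in young control arrays, and Cd163 was below the cutoff.

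The array averages show the same order of groups. Averaged over the members and set to 0 at the old control mean, log2 levels in neocortex were 0.23 to 0.29 in old CR, 0.002 to 0.19 in old resveratrol, -0.05 to 0.06 in old control and -0.08 to 0.06 in young control arrays. All 5 old CR arrays lay above all 15 other arrays. The same average over all genes tested was -0.09 to -0.04 in old CR arrays, lower than in old control arrays (-0.01 to 0.01). Within groups the residuals of members that code for subunits or factors were weakly correlated, as a description over 20 arrays that share scaling. The median correlation of 2 such members was 0.12 in neocortex, 0.10 in heart and 0.28 in muscle, with 65.9%, 62.8% and 66.9% of pairs positive. With other genes, not matched for signal, the median was -0.01, -0.02 and -0.02, with 49.2%, 47.9% and 48.1% positive.

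**Figure D2:**
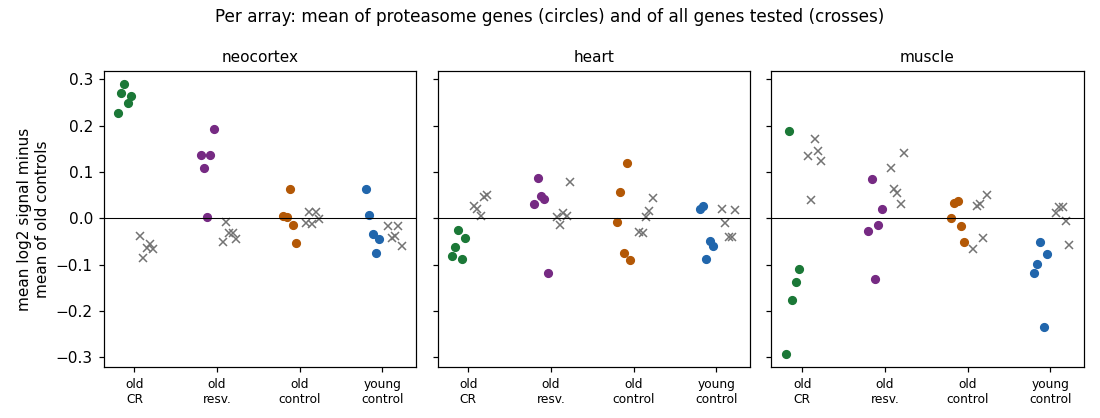
Mean log2 signal of the proteasome genes (circles) and of all genes tested (crosses) in each array, minus the mean of the old control arrays (y axis), by tissue and group. In neocortex the old CR arrays sit at 0.23 to 0.29 and the old control arrays at -0.05 to 0.06, whereas heart and muscle groups overlap, with muscle old CR arrays from -0.29 to 0.19.

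Cell markers and array quality moved with the diets in neocortex. Of 10 neuronal and glial markers tested, 4 fell under CR and 5 under resveratrol, where 17.5% and 13.9% of all genes fell. Among them was Gfap, an astrocyte gene, with log2 differences of -1.84 and -1.17. The summed signal of the 10 markers was 105050 to 124220 in old CR, 103050 to 120600 in old resveratrol and 113940 to 135170 in old control arrays. Of 14 macrophage and microglia markers tested, 3 fell under CR and 8 rose under resveratrol, where 17.5% and 12.3% of all genes did, with summed signals of 15455 to 18278, 21005 to 29164 and 16731 to 20698 in old CR, old resveratrol and old control arrays. The part of cell composition in the rise of the proteasome genes was not tested. The actin 3′ to 5′ difference separated both diet groups from old control without overlap, so it and the diets cannot be told apart. With it as a covariate, an alternative added after seeing the data, 21 members rose and 0 fell under CR (30 and 1 at an unadjusted p under 0.05) with a median log2 difference of 0.30. Under resveratrol 0 members were then called (4 higher and 0 lower at an unadjusted p under 0.05, median 0.18) and between the diets 0 (17 and 1, median 0.17). Calls over all genes dropped alongside, to 776 rises under CR and 18 under resveratrol.

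Counted by probe set, 40 of 86 tested probe sets rose under CR in neocortex and 5 fell, among 27022 tested in all of which 3174 rose and 3953 fell. For 16 of 22 genes with more than 1 tested probe set, all had the same sign. Psmd11 had calls both ways: the probe set used for the gene rose by 0.26 (5349, 4464, 4599, 4994 and 4298 in old CR, against 4155, 3710, 4361, 3674 and 3847 in old control arrays), whereas 2 dimmer ones had log2 differences of -0.42 and -0.52 (adjusted p = 0.0376 and 0.0138). Psme3, which encodes the nuclear PA28 gamma activator, also depended on the probe set. Its main probe set did not pass in neocortex (CR -0.22, resveratrol -0.21). A dimmer one was lower under CR and resveratrol in neocortex (-1.25 and -1.09), muscle (-1.02 and -0.72) and heart (-0.52 and -0.88), and each of these 6 differences passed over all probe sets. In muscle the other tested probe set had 0.0075 and 0.061. In heart the tested probe sets reached up to 0.64 under CR and 0.29 under resveratrol, so the sign depended on the probe set.

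Promoters of the members were examined because so many rose together. RefSeq start sites were found for 41 of the 49 genes, and the 250 bases before each start were searched on both strands in the GRCm38.p6 assembly. TGACNNNGC is the core of the antioxidant response element that the Nfe2l1 protein and its relatives bind. It was found in promoters of 5 of 41 member genes (12.2%) and of 3112 of 27025 genes overall (11.5%). It was present in 4 of the 27 members with a promoter that rose under CR in neocortex (Psmb5, Psmb6, Psmc6 and Psmd12) and in 1 of the 14 others (Psmd9). CCAAT was found in 39.0% of member promoters and 37.5% of all, and GGGCGG in 53.7% and 35.4%. In Psmd9 the TGACNNNGC match overlaps a GGGCGG match. A match is a description of the letters and not a bound site. The promoters of the 4 CR-responsive genes with a TGACNNNGC match, and that of Psmd6, which had the lowest adjusted p and no match, follow with each match in capitals.
Psmb5 (chr14:54617996-54618245, minus strand): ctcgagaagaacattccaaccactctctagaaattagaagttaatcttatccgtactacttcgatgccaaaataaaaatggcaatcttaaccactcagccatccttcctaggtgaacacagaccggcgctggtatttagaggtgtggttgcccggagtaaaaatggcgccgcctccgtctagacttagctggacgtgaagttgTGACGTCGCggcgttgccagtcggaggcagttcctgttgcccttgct
Psmb6 (chr11:70525107-70525356, plus strand): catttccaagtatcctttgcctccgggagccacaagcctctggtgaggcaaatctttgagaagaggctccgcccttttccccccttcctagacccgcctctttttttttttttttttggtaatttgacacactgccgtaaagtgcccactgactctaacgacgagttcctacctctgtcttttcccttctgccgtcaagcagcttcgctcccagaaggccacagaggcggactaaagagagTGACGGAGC
Psmc6 (chr14:45329574-45329823, plus strand): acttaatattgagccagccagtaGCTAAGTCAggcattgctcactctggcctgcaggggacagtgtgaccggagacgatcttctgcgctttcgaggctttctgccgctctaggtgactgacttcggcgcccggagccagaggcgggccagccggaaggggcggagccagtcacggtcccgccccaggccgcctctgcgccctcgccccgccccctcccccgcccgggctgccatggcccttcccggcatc
Psmd12 (chr11:107479278-107479527, plus strand): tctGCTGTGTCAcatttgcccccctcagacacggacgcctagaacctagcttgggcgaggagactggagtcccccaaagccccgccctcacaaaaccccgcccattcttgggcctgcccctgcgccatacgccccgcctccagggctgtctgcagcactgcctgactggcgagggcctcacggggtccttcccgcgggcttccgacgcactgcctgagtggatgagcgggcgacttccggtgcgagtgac
Psmd6 (chr14:14120946-14121195, minus strand): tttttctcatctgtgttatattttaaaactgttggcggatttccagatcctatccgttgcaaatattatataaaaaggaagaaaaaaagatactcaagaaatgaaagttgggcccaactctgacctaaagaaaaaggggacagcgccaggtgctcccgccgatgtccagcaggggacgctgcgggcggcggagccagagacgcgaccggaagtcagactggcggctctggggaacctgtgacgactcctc
In Psmb5 the match lies 47 to 39 bases before the start and in Psmb6 9 to 1 bases before it, both on the gene's strand, whereas in Psmc6 (227 to 219 bases) and Psmd12 (247 to 239 bases) it lies on the opposite strand.

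The heart did not show a rise across the complex; single genes moved in opposite directions. With age, 6 of 48 members rose (12.5%) and 7 fell (14.6%), where 7.05% of all 13285 genes rose and 3.79% fell, and the median log2 difference was 0.04 against 0.03 over all genes. Among genes with a mean signal of at least 1000, 15.4% of 39 members rose and 15.4% fell, against 15% and 6.27% of 4020 genes. The 13 calls became 7 when a gene's probe sets were averaged, by which Psmg2 had 0.19 in place of a fall. The alpha ring was split, with Psma3, Psma5 and Psma6 higher and Psma1, Psma2 and Psma4 lower in old control hearts. Psma6 had 14062, 15386, 13302, 14980 and 14114 in old control against 11415, 9787, 7685, 10448 and 9792 in young control arrays, without overlap (0.56 ± 0.09, adjusted p = 0.000168). Psma2 had 6436, 6474, 6185, 5754 and 6538 in old control against 9241, 9155, 7812, 9194 and 8181 in young control arrays, also without overlap (-0.47 ± 0.09, adjusted p = 0.00154). Among the other members, Psmb3 (0.47 ± 0.12, adjusted p = 0.0122) and Psmc4 (0.40 ± 0.11, adjusted p = 0.0244) had the next largest rises, and the assembly chaperone genes Psmd10 (-0.59 ± 0.17, adjusted p = 0.0243), Psmg2 (-0.53 ± 0.16, adjusted p = 0.0366) and Psmg1 (-0.43 ± 0.09, adjusted p = 0.00286) fell. The other tested probe sets of Psmb3 and Psmc4 had log2 differences of -0.14 and -0.16 with age and were not called. For Psma6 the 3 tested probe sets ranged from -0.04 to 0.56, and 1 was called. Old control hearts were also the group whose actin and Gapdh 3′ to 5′ differences lay above those of every other group.

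Under CR, 5 members rose (10.4%) and 9 fell (18.8%) in the heart, where 7.94% of all genes rose and 14.1% fell, and the median log2 difference was 0.01 against 0.0005. The 14 calls became 8 without old CR array 3 and 8 when a gene's probe sets were averaged. Under resveratrol 7 rose (14.6%) and 3 fell (6.25%), where 7.08% and 10.5% of all genes did, with a median of 0.03 against 0.01. At a mean signal of at least 1000, 15.4% of members rose and 7.69% fell under resveratrol, against 13.5% and 19.3% of all genes. For CR these shares were 10.3% and 20.5%, against 12% and 24.9%. These comparisons and that of age all rest on the same old control arrays. Psma2 had 10790, 8557, 10467, 8119 and 8946 in old CR and 8964, 8422, 8103, 10765 and 8459 in old resveratrol arrays, above the old control range of 5754 to 6538 (log2 differences 0.57 ± 0.09 and 0.50 ± 0.09, adjusted p = 7.22e-05 and 0.000393). Psmd10, an ankyrin-repeat chaperone of the base, had 712, 686, 799, 693 and 588 in old CR, 689, 859, 775, 944 and 600 in old resveratrol, 483, 504, 480, 303 and 422 in old control and 889, 708, 631, 489 and 602 in young control arrays, with log2 differences of 0.68 ± 0.17 (adjusted p = 0.00483) and 0.82 ± 0.17 (adjusted p = 0.00122). Psmg2 had 1818, 1342, 1406, 1108 and 787 in old CR, 1442, 1834, 1290, 1694 and 1407 in old resveratrol and 875, 1261, 989, 1010 and 962 in old control arrays, and was called under resveratrol (0.59 ± 0.16, adjusted p = 0.0134). Psmd11 rose under CR, with 9823, 10155, 10356, 10198 and 11047 in old CR against 7691, 10285, 7913, 7672 and 5561 in old control arrays, where array 2 overlapped (0.42 ± 0.11, adjusted p = 0.0067).

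Psmd3 was the member with the lowest adjusted p under both diets in heart, as a fall. It had 1565, 1364, 1079, 1604 and 1721 in old CR, 1652, 1095, 1567, 1455 and 1127 in old resveratrol, 2491, 2811, 2409, 2424 and 2471 in old control and 2097, 2540, 2193, 2073 and 2268 in young control arrays. Neither diet group overlapped either control group, and the log2 differences from old control were -0.80 ± 0.13 (adjusted p = 5.68e-05) and -0.89 ± 0.13 (adjusted p = 2.47e-05). Psmc3, an ATPase gene, had 5817, 5635, 4847, 5831 and 5784 in old CR and 6268, 6031, 5919, 5978 and 4875 in old resveratrol, against 7435, 7639, 7191, 8058 and 7178 in old control and 6009, 5926, 6221, 5892 and 5624 in young control arrays (-0.43 ± 0.08 and -0.37 ± 0.08 from old control, adjusted p = 0.000316 and 0.00168). Here the old control arrays were the ones that stood above the other 3 groups. Psmg4, a core assembly chaperone gene, had 1255, 1135, 1072, 1313 and 1148 in old resveratrol against 1444, 1280, 1528, 2012 and 1518 in old control arrays which overlapped, and passed narrowly (-0.38 ± 0.13, adjusted p = 0.0462). Psme4 was called both ways under CR: the probe set used for the gene was lower (7692, 7789, 6380, 8589 and 7319 in old CR against 10482, 9146, 9939, 10058 and 10381 in old control arrays, -0.41 ± 0.11), whereas a second one had a log2 difference of 0.68 ± 0.11 (adjusted p = 8.84e-05).

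The diets differed for few heart members. In old CR relative to old resveratrol hearts 0 members were higher and 2 lower (0% and 4.17%), where 1.43% and 2.57% of all genes were (limma; 4 higher and 6 lower at an unadjusted p under 0.05). Psme3ip1 had 929, 804, 783, 906 and 968 in old CR, 1297, 1473, 1219, 1476 and 1178 in old resveratrol and 1340, 1182, 1207, 1131 and 1255 in old control arrays, without overlap of old CR with either (-0.60 ± 0.11 between the diets, adjusted p = 0.00159; -0.48 ± 0.11 from old control, adjusted p = 0.00187). Psma1 had 5786, 5918, 5943, 6054 and 5582 in old CR against 6892, 8106, 6870, 8273 and 6624 in old resveratrol arrays (-0.32 ± 0.09, adjusted p = 0.0489; 0.031 averaged over its probe sets), and old control arrays lay between 5190 and 6435.

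The inducible subunits in heart turned on single arrays. Psmb9 had 475, 530, 466, 421 and 425 in old CR, 737, 607, 607, 750 and 711 in old resveratrol, 645, 522, 735, 5223 and 864 in old control and 1572, 542, 576, 527 and 596 in young control arrays. Old control array 2 lay within the range of the old CR arrays and the other 4 above it, and Psmb9 was called lower under CR (-1.15 ± 0.40, adjusted p = 0.0397). Without old control array 4 the log2 difference was -0.56 and did not pass (adjusted p = 0.0956), and without that array and young control array 1 it was -0.56 and passed (adjusted p = 0.00654). Psmb8 had 514, 309, 696, 641 and 642 in old CR, 886, 607, 783, 679 and 806 in old resveratrol, 547, 758, 858, 3802 and 575 in old control and 2386, 864, 513, 441 and 550 in young control arrays (CR -0.82 ± 0.42, adjusted p = 0.169). Psmb10 had 1320, 1351, 1721, 1196 and 1611 in old CR, 1540, 1940, 1942, 1632 and 1322 in old resveratrol, 1842, 1540, 1471, 6194 and 1708 in old control and 1783, 1772, 1900, 2037 and 2236 in young control arrays (CR -0.58 ± 0.25, adjusted p = 0.0981). The same old control array was high in all 3. Of 21 interferon response and antigen processing genes tested, 0 rose and 6 fell under CR in heart, where 7.94% of all genes rose and 14.1% fell. The summed signal of this list was 33905 to 41338 in old CR against 39723 to 189430 in old control arrays. Macrophage markers were higher under both diets in heart (7 of 15 rose under CR and 8 under resveratrol, where 7.94% and 7.08% of all genes rose), with sums of 26595 to 31722 in old CR, 24044 to 35036 in old resveratrol and 17428 to 23410 in old control arrays. The part of these cells in the heart results was not tested.

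The constitutive counterparts did not share that array's excess. Psmb5 had 5577, 6339, 5277, 6070 and 6338 in old CR, 5660, 5984, 6235, 5766 and 5818 in old resveratrol, 6561, 6416, 5757, 6936 and 6120 in old control and 4922, 5769, 6074, 5579 and 5932 in young control arrays. Psmb7 had 17890, 19004, 18775, 17549 and 19035 in old CR, 17276, 19088, 15290, 16919 and 15576 in old resveratrol and 20081, 16696, 16429, 16792 and 16667 in old control arrays. Neither was called under CR (-0.10 ± 0.08 and 0.09 ± 0.09). Psmb6 fell under CR, with 6781, 7432, 6828, 6701 and 6510 in old CR, 7403, 8216, 7756, 7787 and 6270 in old resveratrol and 8189, 8076, 7539, 8002 and 8330 in old control arrays, old CR lying wholly below old control (-0.23 ± 0.08, adjusted p = 0.0334).

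**Figure D3:**
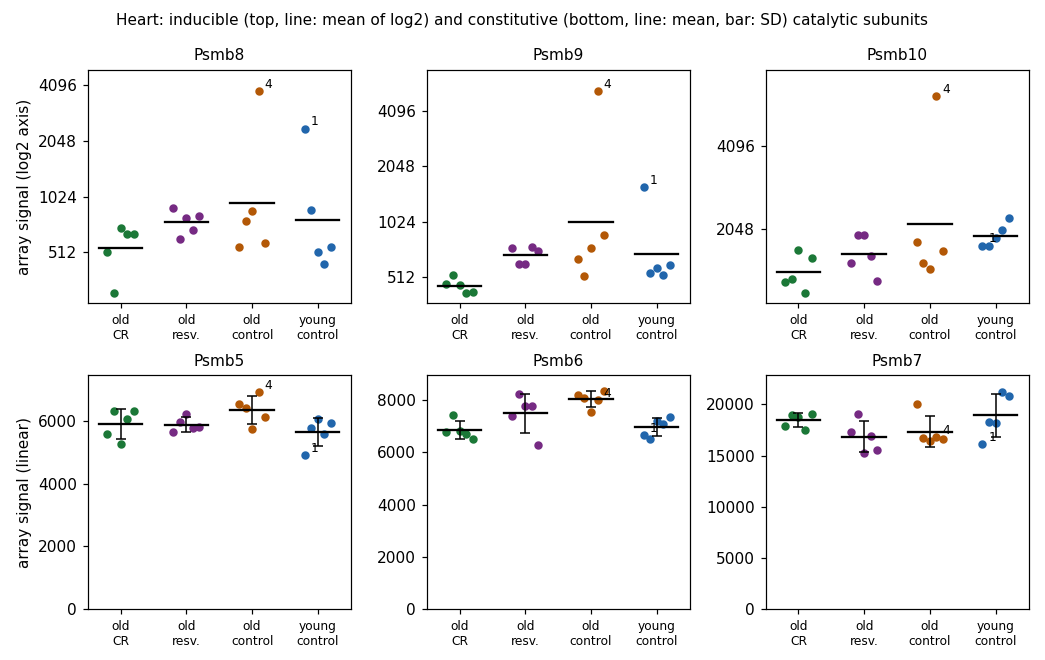
Array signal in heart of the inducible subunit genes Psmb8, Psmb9 and Psmb10 (top, log2 axis, line at the mean of log2 values) and of Psmb5, Psmb6 and Psmb7 (bottom, linear axis, line at the mean and bar for SD, n = 5), by group. The points marked 4 and 1 are old control array 4, at 3802, 5223 and 6194 in the top row, and young control array 1.

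In gastrocnemius muscle the diets were accompanied by changes of larger size in fewer genes. Under CR 4 of 47 members rose (8.51%) and 11 fell (23.4%), where 17.5% of all 12831 genes rose and 13.6% fell, and the median log2 difference was -0.06 against 0.10 over all genes. Under resveratrol 4 rose (8.51%) and 6 fell (12.8%), where 9.42% and 9.26% of all genes did, with a median of 0.0007 against 0.07. At a mean signal of at least 1000, 8.11% of 37 members rose and 27% fell under CR, against 15.6% and 22.9% of 3963 genes. For resveratrol these shares were 8.11% and 13.5%, against 12.4% and 14.9%. The rises were those of 3 alpha ring genes (Psma2, Psma5 and Psma6) and of Psmc3ip under each diet. The falls lay mainly in the regulatory particle and included the ATPase genes Psmc4 and Psmc5 and the non-ATPase genes Psmd1 and Psmd2 under both diets. Both diets were measured against the same old control arrays, whose Gapdh 3′ minus 5′ signals all lay above those of both diet groups. Between the diets 0 members were called (limma; 4 at an unadjusted p under 0.05, and 0 by the methods' t-test), where 0.561% of all genes were called in either direction.

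Psmb2, a structural beta ring gene with 1 probe set, had the largest difference. It had 996, 1173, 1148, 1069 and 993 in old CR, 921, 1230, 632, 998 and 1344 in old resveratrol, 1656, 3638, 2712, 2975 and 2966 in old control and 4087, 4210, 3893, 840 and 4039 in young control arrays, with log2 differences of -1.33 ± 0.33 (adjusted p = 0.00475) and -1.45 ± 0.33 (adjusted p = 0.00416). Diet and old control arrays did not overlap, and young control array 4 lay with the diet arrays. Psmd2, the scaffold of the base, had 4658, 2649, 3663, 4661 and 4130 in old CR, 5252, 4154, 4434, 4541 and 4442 in old resveratrol, 5691, 8109, 8815, 8075 and 9031 in old control and 8305, 8524, 8104, 4909 and 8092 in young control arrays, with log2 differences of -1.02 ± 0.17 (adjusted p = 0.00016) and -0.79 ± 0.17 (adjusted p = 0.00267), again without overlap of diet and old control arrays. When its probe sets were averaged, of which the second is dim, Psmd2 had 0.38 and 0.018 in place of these falls. Psmc5 had 3638, 4306, 3356, 3229 and 3767 in old CR, 4242, 3819, 3335, 4036 and 4067 in old resveratrol and 5312, 5950, 5825, 6021 and 5920 in old control arrays, without overlap (-0.67 ± 0.10 and -0.58 ± 0.10, adjusted p = 4.36e-05 and 0.000363). For Psmc4, old resveratrol arrays had 3821, 4244, 3643, 4524 and 3746 against 6469, 7158, 5909, 6684 and 5588 in old control arrays (-0.67 ± 0.13, adjusted p = 0.00123).

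The 3 called alpha ring genes moved the other way. Of the 7 genes of this ring, 5 had a positive difference under CR and 7 under resveratrol. Psma5 had 8747, 14360, 9789, 10920 and 9276 in old CR, 9610, 10284, 10182, 12079 and 11259 in old resveratrol, 10178, 6171, 5516, 5333 and 4814 in old control and 4708, 4659, 5101, 8187 and 4909 in young control arrays, with log2 differences of 0.76 ± 0.18 (adjusted p = 0.00406) and 0.79 ± 0.18 (adjusted p = 0.00494). Psma2 had 9157, 16672, 9522, 9409 and 10080 in old CR, 10175, 11415, 9874, 10439 and 10404 in old resveratrol, 8324, 6640, 6593, 6901 and 6527 in old control and 5374, 5700, 6276, 7653 and 5824 in young control arrays (0.61 ± 0.14 and 0.58 ± 0.14, adjusted p = 0.00267 and 0.00593). Old CR array 2 was the highest for both, and old control array 1 and young control array 4 again lay nearer to the diet arrays than the rest of their groups. The 3 tested probe sets of Psma5 ranged from -0.55 to 0.76 under CR and from 0.16 to 0.79 under resveratrol, with 1 called under each diet. Psmc3ip had 245, 374, 179, 159 and 211 in old CR and 258, 229, 171, 223 and 193 in old resveratrol against 139, 123, 122, 123 and 126 in old control arrays (0.82 ± 0.23 and 0.75 ± 0.23, adjusted p = 0.012 and 0.0278). Without those 2 control arrays, an alternative added after seeing the data, the differences under CR and resveratrol were -1.51 and -1.62 for Psmb2, -1.13 and -0.90 for Psmd2 and 0.94 and 0.97 for Psma5, and the resveratrol count was 16 in place of 10.

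**Figure D4:**
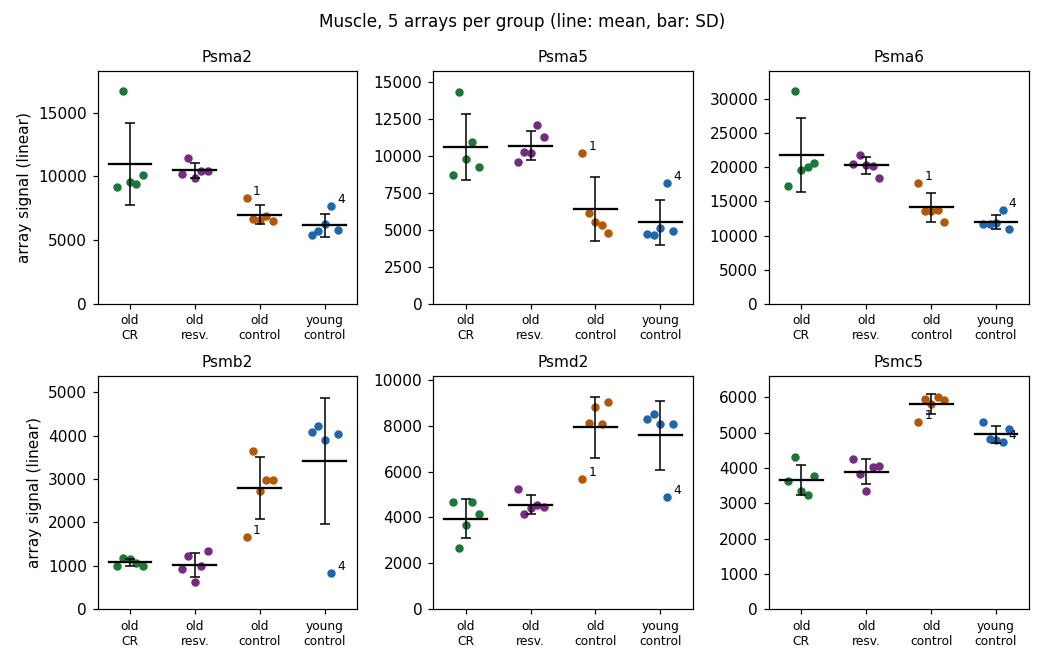
Array signal (y axis, linear, from 0) of 6 proteasome genes in gastrocnemius muscle by group; each point is 1 array, lines are means and bars SD (n = 5). The points marked 1 and 4 are old control array 1 and young control array 4, which for Psmb2 sit at 1656 and 840 and for Psma5 at 10178 and 8187, toward the diet arrays.

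The proteolytic and inducible subunits were not called in muscle under either diet. Psmb8 had 236, 364, 266, 150 and 223 in old CR, 268, 459, 1129, 414 and 495 in old resveratrol and 305, 336, 480, 339 and 519 in old control arrays, and the difference between the diets of -1.04 ± 0.28 did not pass (adjusted p = 0.0939). Among 21 interferon response genes tested, 6 rose and 1 fell under resveratrol in muscle (all genes, 9.42% and 9.26%), with summed signals of 23727 to 58346 in old resveratrol against 20580 to 25839 in old control arrays. Of 14 macrophage markers tested, 8 rose under each diet (all genes, 17.5% under CR and 9.42% under resveratrol), with sums of 10196 to 18860 in old CR, 11020 to 23013 in old resveratrol and 7894 to 9990 in old control arrays, and Aif1 was below the cutoff. The part of these cells in the muscle results was not tested.

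Age left no called member in muscle. In old control relative to young control muscle 0 of 47 were called (limma; 11 at an unadjusted p under 0.05, all higher, and 4 by the methods' t-test at its own threshold), where 0.429% of all genes were called in either direction. The differences leaned upward, with a median of 0.16 against 0.03 over all genes and 35 of 47 above 0. Psmb4, Psmc3 and Psmc5 were the 3 members whose old control arrays all exceeded the young control arrays, which held for 2.51% of all genes. Psmc5, for example, had 5312 to 6021 in old control against 4732 to 5290 in young control arrays (0.23 ± 0.10, adjusted p = 0.291).

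Several muscle genes gave calls both ways between probe sets. Psmc2 under CR had one probe set lower (-0.48 ± 0.09, adjusted p = 0.000586) and a dim one higher (1.09 ± 0.36, adjusted p = 0.0259), while the probe set used for the gene (14034, 16511, 10988, 13743 and 13197 in old CR against 17210, 12298, 11820, 12125 and 11451 in old control arrays) did not pass. Psmd11 under CR had one lower (-0.82 ± 0.11) and a dimmer one higher (1.34 ± 0.22), and both were called in the same directions under resveratrol (-0.33 and 1.28). The probe set used for Psmd11 overlapped, with 14378, 10939, 12161, 16127 and 14689 in old CR, 17451, 13725, 15285, 16978 and 15056 in old resveratrol and 16598, 12733, 13254, 12205 and 10275 in old control arrays. Psmd7, whose main probe set fell under CR (1845, 2668, 2457, 2748 and 2917 in old CR against 2931, 4213, 3881, 4550 and 3734 in old control arrays, -0.61 ± 0.15, adjusted p = 0.00498), had a dim second probe set with 1.48 ± 0.54 (adjusted p = 0.0412). For these 3 genes the sign of the difference depended on the probe set. Signs also differed for genes without calls both ways, Psma5 under CR among them. All tested probe sets had the same sign for 9 of 22 genes with more than 1 under CR and for 14 of 22 under resveratrol.

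The change under a diet or with age was then compared between tissues in the 60-array model, as the difference of 2 differences. For CR, 10 of 47 members had a higher change in neocortex than in heart and 0 a lower one (unadjusted p under 0.05: 21 and 0). Of all 13281 genes, 5.53% were higher and 3.66% lower (9.19% in either direction). Against muscle, 21 were higher in neocortex and 0 lower, where 9.56% of all genes were higher and 10.3% lower (19.8% in either direction). At an unadjusted p under 0.05 the counts were 22 and 1, and 13 were called when probe sets were averaged. Between muscle and heart 8 were higher and 13 lower in muscle, where 13.4% of all genes were higher and 9.77% lower (23.2% in either direction). The median of the members was 0.35 between neocortex and heart and 0.36 between neocortex and muscle, against -0.02 and -0.13 over all genes. Psmb3 differed by 0.86 ± 0.16 (adjusted p = 0.00024) and Psmc3 by 0.80 ± 0.11 (adjusted p = 1.23e-06) between neocortex and heart: both rose in neocortex and fell in heart. The fall of Psmb3 in heart rested on the probe set used for the gene (-0.45), since its other tested probe set had 0.25. Psmb2 differed by 1.85 ± 0.35 (adjusted p = 9.44e-05) and Psmd2 by 1.33 ± 0.16 (adjusted p = 2.58e-08) between neocortex and muscle, again rising in neocortex and falling in the other tissue. Between muscle and heart Psmb2 differed by -1.62 ± 0.35 under CR, with 4374, 5804, 5100, 6128 and 5850 in old CR against 4722, 4126, 4361, 4580 and 4451 in old control hearts.

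Under resveratrol, 3 members had a higher change in neocortex than in heart (Psmb3, Psmc3 and Psma6) and 0 a lower one (8 and 5 at an unadjusted p under 0.05). Of all genes, 3.83% were higher and 2% lower (5.83% in either direction). For Psmb3 the 2 tested probe sets had opposite signs in heart under resveratrol, -0.30 for the one used and 0.20 for the other. Against muscle 9 were higher in neocortex and 0 lower (11 and 2 at an unadjusted p under 0.05), where 6.79% of all genes were higher and 5.49% lower (12.3% in either direction). Between muscle and heart 7 were higher and 10 lower in muscle, where 9.98% of all genes were higher and 8.99% lower (19% in either direction). For age, 2 members had a lower signed change in neocortex than in heart and 0 a higher one, where 1.67% of all genes were lower and 2.24% higher (3.92% in either direction). They were Psma6 (-0.62 ± 0.13, but 0.030 averaged over its probe sets) and Psmc3 (-0.41 ± 0.11). In muscle 6 had a higher signed change than in heart and 0 a lower one, where 3.47% of all genes were higher and 2.84% lower (6.31% in either direction). The 6 became 3 without heart young control array 1 and 2 without the arrays that stand apart. Between neocortex and muscle 0 members differed (limma, 11 at an unadjusted p under 0.05), where 0.376% of all genes did in either direction. Psmd10 and Psma2, which fell with age in heart, differed by 0.77 ± 0.21 (adjusted p = 0.0199) and 0.66 ± 0.16 (adjusted p = 0.00575) between muscle and heart, and Psmd14 by 0.62 ± 0.19 (adjusted p = 0.035).

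**Figure D5:**
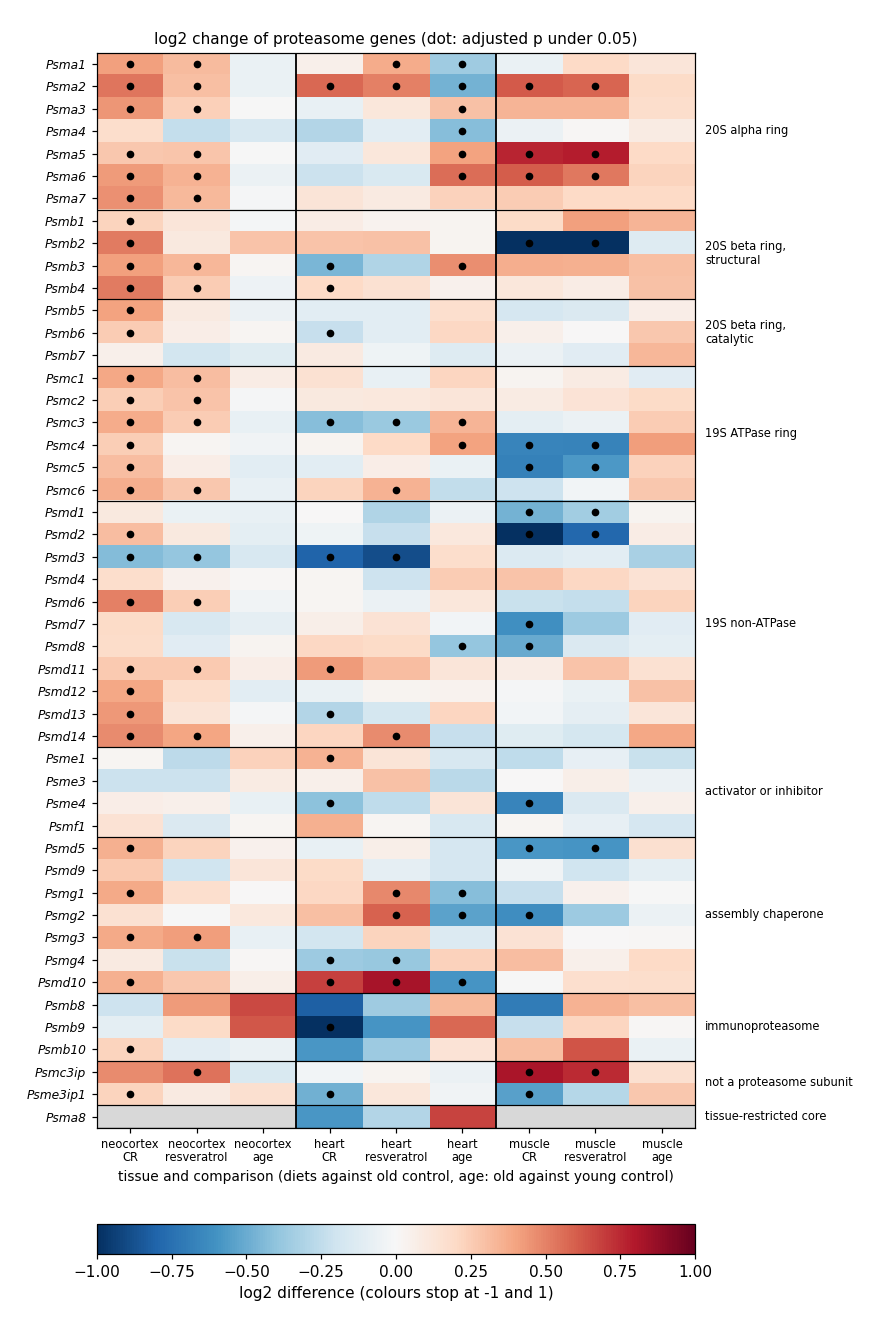
Log2 difference of each proteasome gene (rows, grouped by role) in neocortex, heart and muscle for CR and resveratrol against old control and for old against young control (columns); red is higher and blue lower, colours stop at -1 and 1, dots mark an adjusted p under 0.05 and grey was not tested. The neocortex CR column holds 30 rises and 1 fall, whereas the heart and muscle columns mix both signs.

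Genes that work with the proteasome but carry other names were read from lists. Of 10 partners matched, 5 rose and 0 fell under CR in neocortex (5 did not pass) and 2 rose under resveratrol, where 13.1% and 12.3% of all genes rose. They were led by Pomp, the maturation factor that closes core assembly, with log2 differences of 0.51 ± 0.08 under CR (adjusted p = 3.48e-05) and 0.40 ± 0.08 under resveratrol (adjusted p = 0.000486), and included the proteasome deubiquitinases Usp14 (0.26) and Uchl5 (0.24). In muscle 1 partner rose and 2 fell under CR, near the 17.5% and 13.6% of all genes, and 1 rose and 3 fell under resveratrol (all genes, 9.42% and 9.26%). The largest difference under CR was that of Ecpas, a proteasome adaptor, at -1.54 ± 0.16, and Usp14 had -0.87 ± 0.13. In heart 0 rose and 3 fell under CR (all genes, 7.94% and 14.1%).

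Of 6 regulators of proteasome transcription tested in neocortex, 0 rose and 3 fell under CR, where 13.1% of all genes rose and 17.5% fell, and 1 rose and 1 fell under resveratrol (all genes, 12.3% and 13.9%). The 3 falls under CR were those of Nfe2l2 (-0.41 ± 0.10, adjusted p = 0.00233), Mafg (-0.38 ± 0.10, adjusted p = 0.00594) and Nfe2l1 (-0.34 ± 0.10, adjusted p = 0.0149). In heart, Nfe2l1 was lower under CR (-0.73 ± 0.14) and resveratrol (-0.82 ± 0.14) and higher with age (0.52 ± 0.14). Of the 9 matched ubiquitin, E1 enzyme and shuttle factor genes, 0 rose and 2 fell under CR in neocortex, Ubqln4 (-0.71 ± 0.13) and Rad23b (-0.45 ± 0.09), a share near that of all genes, and 1 rose and 2 fell under resveratrol. Of the muscle ubiquitin ligase genes, 4 of 9 rose and 2 fell under CR in muscle (all genes, 17.5% and 13.6%), with Trim63, the MuRF1 gene, in front (mean signal 23843 in old CR against 10635 in old control muscle), 2 of 9 rose and 4 fell in heart (all genes, 7.94% and 14.1%), where Fbxo32, the atrogin-1 gene, had 1.26 ± 0.20, and 0 of 8 rose and 2 fell in neocortex (all genes, 13.1% and 17.5%). The difference between tissues was not tested for these genes. Abundance of RNA says nothing here of proteasome protein or activity, which these arrays did not measure.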

How the data were processed

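Gene expression was measured on Affymetrix Mouse Genome 430 2.0 arrays, 5 for each of 4 groups in 3 tissues. The deposited values are signal intensities that the authors made with GCOS 1.2, scaled to a trimmed mean of 500. Signals under 1 were set to 1, arrays of a tissue were put on a common 2% trimmed mean, and log2 values were tested per tissue with limma 3.58.1 (eBayes with trend) in R 4.3.3. Benjamini-Hochberg adjustment ran over all genes tested, at 0.05. A model over all 60 arrays gave tissue levels and differences between tissues, with the tissues treated as taken from different mice. Probe sets were named from the platform annotation: 34945 had 1 symbol, 932 several and 9160 none, and 64 control probe sets were left out. The models were tested on simulated data. Named members were the catalytic and inducible subunits where any was called, up to 3 called members with the largest rise and fall per comparison, up to 3 per difference between tissues, and those with probe sets called both ways. Members and lists were chosen with earlier results of these data known. Alternatives covered scaling, offset, filter, test, groups fitted, probe sets, replicate block and arrays left out. The replicates are biological replicates per the labels, and their number limits the precision.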

Additional observations from a re-analysis of the deposited data

Results flagged for a closer look

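Of 100 groups of 5 arrays examined for the named members, 16 held an array far from the other 4, where chance gives about 1 in 20, or 5. In heart, old control array 4 was far above the rest for Psmb10 (6194, others up to 1842), Psmb8 (3802, others up to 858) and Psmb9 (5223, others up to 864). Old control array 1 was high for Psmb7 (20081) and old control array 2 for Psmd3 (2811), and old resveratrol array 5 was low for Psmc3 (4875). In muscle, old CR array 2 was high for Psma2 (16672), and old control array 1 differed from its group for Psma2 (8324), Psmc3ip (139), Psmc5 (5312) and Psmd2 (5691). In neocortex, old resveratrol array 4 was high for Psmb8 (492) and Psmb9 (459), old resveratrol array 2 was high for Psmb2 (2216), old CR array 4 was low for Psmb9 (111) and old CR array 1 was low for Psmd3 (971).

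Changes that differed between tissues by the test of the difference itself are listed with their size on the log2 scale. Under CR, neocortex exceeded muscle for Psmb2 (1.85), Psmd2 (1.33) and Psmc5 (0.98) and heart for Psmb3 (0.86), Psmc3 (0.80) and Psmd13 (0.73). Psmd13 had 1778, 1857, 1910, 1677 and 1641 in old CR against 1382, 1273, 1465, 1294 and 1149 in old control neocortex, and 1455, 1542, 1301, 1628 and 1761 against 1856, 2052, 1791, 1869 and 1805 in heart. Muscle minus heart under CR was -1.62 for Psmb2, -0.98 for Psmd2 and -0.92 for Psmg2. Psmg2 had 1090, 1518, 1515, 1469 and 1770 in old CR against 1497, 2478, 2293, 2802 and 2383 in old control muscle. Under resveratrol, neocortex exceeded muscle for Psmb2 (1.54), Psmd2 (0.88) and Psmd5 (0.81) and heart for Psmb3 (0.64), Psmc3 (0.63) and Psma6 (0.51). Psmd5 had 710, 708, 791, 730 and 685 in old resveratrol against 1036, 1139, 1166, 1059 and 1057 in old control muscle. Muscle minus heart under resveratrol was -1.74 for Psmb2, 0.99 for Psmb10 and -0.95 for Psmg2. With age, muscle minus heart was 0.77 for Psmd10, 0.66 for Psma2 and 0.62 for Psmd14, and neocortex minus heart was -0.62 for Psma6 and -0.41 for Psmc3. Psmd14 had 8020, 6172, 6129, 5590 and 5261 in old control against 4501, 4317, 4692, 5730 and 4412 in young control muscle.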

How the results depend on the processing

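Members called under CR in neocortex numbered 31, and 21 to 45 under every alternative run. The 45 are probe sets, counted on their own among 86 tested, and not genes. The mean of all probe sets in place of the brightest gave 6 for neocortex CR against resveratrol (13), 11 for neocortex resveratrol (18), 8 for heart CR (14), 7 for heart age (13), 1 for heart CR against resveratrol (2), 13 for the CR change neocortex minus muscle (21) and 1 for the age change neocortex minus heart (2). It also turned round Psma1 in heart between the diets (0.031 in place of -0.32), Psmg2 with age in heart (0.19 in place of -0.53), Psma6 in the age change neocortex minus heart (0.030 in place of -0.62) and Psmd2, whose second probe set is dim, in muscle under CR (0.38) and resveratrol (0.018), in the CR change muscle minus heart (0.64) and the resveratrol change neocortex minus muscle (-0.64). Every probe set on its own gave 29 for muscle CR (15) and 18 for muscle resveratrol (10), over more features. Heart CR against resveratrol (2) gave 1 with quantile normalization, with no filter and without the trend, 4 with only the 2 groups, 7 by either version of the methods' t-test before and, on unlogged signal, 4 after adjustment. Heart CR gave 9 without the trend, and heart age 7 by either version of that test after adjustment. That test before adjustment gave 4 for muscle age and 2 for neocortex age (0 each in limma). The actin covariate gave 0 for neocortex resveratrol and for CR against resveratrol. Leaving out the control arrays that stand apart gave 16 for muscle resveratrol (10) and 2, 4 and 1 for the age changes muscle minus heart (6), neocortex minus heart (2) and neocortex minus muscle (0), and 5 for the resveratrol change neocortex minus heart (3). The cause of these shifts was not tested.

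Leaving out 1 array at a time gave counts of 28 to 31 for neocortex CR, 16 to 19 for neocortex resveratrol, 7 to 14 for neocortex CR against resveratrol (7 without old resveratrol array 3), 0 to 2 for neocortex age, 8 to 15 for heart CR (8 without old CR array 3), 9 to 16 for heart age, 9 to 13 for heart resveratrol, 1 to 2 for heart CR against resveratrol, 13 to 20 for muscle CR, 8 to 13 for muscle resveratrol, 0 to 1 for muscle age and 0 to 1 for muscle CR against resveratrol. For differences between tissues the ranges were 9 to 14, 19 to 22 and 18 to 22 for CR, 3 to 5, 6 to 10 and 14 to 20 for resveratrol and 2 to 6, 0 to 2 and 3 to 9 for age (neocortex minus heart, neocortex minus muscle, muscle minus heart; 6 without muscle old resveratrol array 3 and 3 without heart young control array 1). The replicate number was tried as a block although samples with the same number did not deviate together (at most 1 of 5 pairs had a correlation over 0.1): the block gave 31 for neocortex CR and changed no count by over 1.5 times.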
